A study of Mus musculus with 6 samples.

Results

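Astrocytes are told apart from other brain cells by a small set of genes, and 5-hydroxymethylcytosine (5hmC) at 8 of these genes was examined in mice with a Tet1 knockout (KO) and in wild-type (WT) mice. The genes were Slc1a2, Slc1a3, Aqp4, Gja1, Gfap, S100b, Aldh1l1 and Sox9. Each gene was represented by a fixed window of 50 to 170 kb in mouse build mm9, meant to hold the gene and flanking DNA. No gene annotation of mm9 was used to check this. A counted region was assigned to a gene when its midpoint lay in the window, so it need not lie in the gene itself. In this way 197 of 192196 regions were assigned, 50 to Slc1a2, 51 to Slc1a3, 9 to Aqp4, 8 to Gja1, 16 to Gfap, 10 to S100b, 39 to Aldh1l1 and 14 to Sox9. The genes were chosen for their known expression, but the list and windows were set with earlier results of these data known.

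There were 2 libraries of 5hmC-enriched DNA from KO and 2 from WT. The KO mice lacked Tet1 constitutively, that is, in all cells and not only in astrocytes, and the WT mice carried no such deletion. The labels name brain as the material, whereas the text of the study describes astrocyte cultures grown from the cortex and hippocampus of newborn pups. No age, sex or number of mice per library is given in the labels. The count table measures DNA and holds no RNA, so the identity of the cells could not be checked here against these markers. The loss of Tet1 itself was not checked here either. For its cultures, the study reports staining for astrocyte markers such as Aldh1l1 and not for neuronal markers. It also reports hardly any Tet1 mRNA in KO astrocytes.

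Tet enzymes oxidise methylated cytosine, mostly in CG dinucleotides, to 5hmC, which is common in brain DNA and tends to lie in the bodies and distal regulatory DNA of genes in use. Astrocytes take up synaptic glutamate, buffer water and ions around blood vessels and are coupled to each other by gap junctions. Of the 8 genes, Slc1a2, Slc1a3, Aqp4 and Gja1 stand for these functions. Gfap, S100b and Aldh1l1 encode cytoplasmic proteins, and Sox9 encodes the transcription factor that sets the lineage.

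The libraries held 16819455 to 19288900 counts, and libraries of the same genotype differed. The region with most counts over the 4 libraries together made up 8.52% of KO sample 1 and 27.3% of KO sample 2, and 13.1% of WT sample 1 and 25.0% of WT sample 2, so it set the first sample of each genotype apart from the second. Chromosome Y held 1765 counts in KO sample 1 and 46 in KO sample 2, against 5353 and 4420 in WT. Levels are therefore given as CPM, that is, counts relative to a library size that edgeR's TMM factors correct for such regions, and each result that rests on 1 KO library is given with and without it. A floor of 3 counts corresponded to 0.141 to 0.195 CPM. In bulk DNA, fewer cells that carry 5hmC at a gene cannot be told apart from less 5hmC per cell. Where nothing in the labels says that libraries came from separate mice or cultures, p-values measure the spread between these libraries, which may be technical.

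The DNA before the start sites was looked at first, since CG dinucleotides are the main substrate of Tet enzymes. RefSeq promoters of GRCm38.p6 were found for 6 of the 8 genes. In the 250 bases before the start, these held 1 to 7 CG, against a median of 6 over 32851 promoters, of which 92.1% held at least 1 CG. Searching CG reads the same on both strands. The promoters of Gfap and Aldh1l1 are shown as an example with few CG and the one with the most, with CG in capitals. The Gfap sequence lies at chr11:102897201-102897450 on the minus strand and holds 2 CG, and the Aldh1l1 sequence lies at chr6:90550543-90550792 on the plus strand and holds 7 CG. No more than 2 CG were as many as 29.0% of all promoters held, and no more than 7 CG as many as 57.0%.
Gfap: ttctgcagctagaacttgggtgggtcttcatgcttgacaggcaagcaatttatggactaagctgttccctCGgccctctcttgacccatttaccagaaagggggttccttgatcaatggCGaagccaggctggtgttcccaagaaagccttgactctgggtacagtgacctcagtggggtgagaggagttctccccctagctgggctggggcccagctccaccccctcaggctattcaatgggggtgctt
Aldh1l1: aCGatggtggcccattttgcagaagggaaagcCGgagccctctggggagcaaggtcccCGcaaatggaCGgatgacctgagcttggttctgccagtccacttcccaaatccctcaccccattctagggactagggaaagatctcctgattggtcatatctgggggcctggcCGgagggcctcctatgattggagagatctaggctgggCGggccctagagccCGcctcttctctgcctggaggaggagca
These sequences are of another build than the counts, so no count was placed on them, and 5hmC at the promoters themselves was not measured here.

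To compare how much 5hmC the genes carried, counts were summed over each window and divided by its width. In WT, all 8 windows lay above the median of 21427 autosomal tiles of 100 kb that held a region, which was 0.192 CPM per kb. Slc1a3 stood highest, at 2.16 ± 0.0756 CPM per kb (mean ± SD, n = 2), followed by Gfap at 1.81 ± 0.124. Sox9 at 1.21 ± 0.0763, Slc1a2 at 1.19 ± 0.0460 and Aldh1l1 at 1.05 ± 0.0899 formed a middle set. Aqp4 at 0.762 ± 0.0809, S100b at 0.639 ± 0.0324 and Gja1 at 0.516 ± 0.0231 came last. Next to each other in this order, only Sox9 and Slc1a2 had overlapping WT values. KO sample 1 gave the same order as WT sample 2. In KO sample 2, Gfap came before Slc1a3, Aldh1l1 before Sox9 and Slc1a2, and S100b before Aqp4. Among tiles, the WT level of the windows ranked from the 77.3th percentile for Gja1 to the 99.4th for Slc1a3. The tiles include DNA far from any gene, and no gene annotation of mm9 was used, so the share of this that goes with genes in general was not tested.

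**Figure D1:**
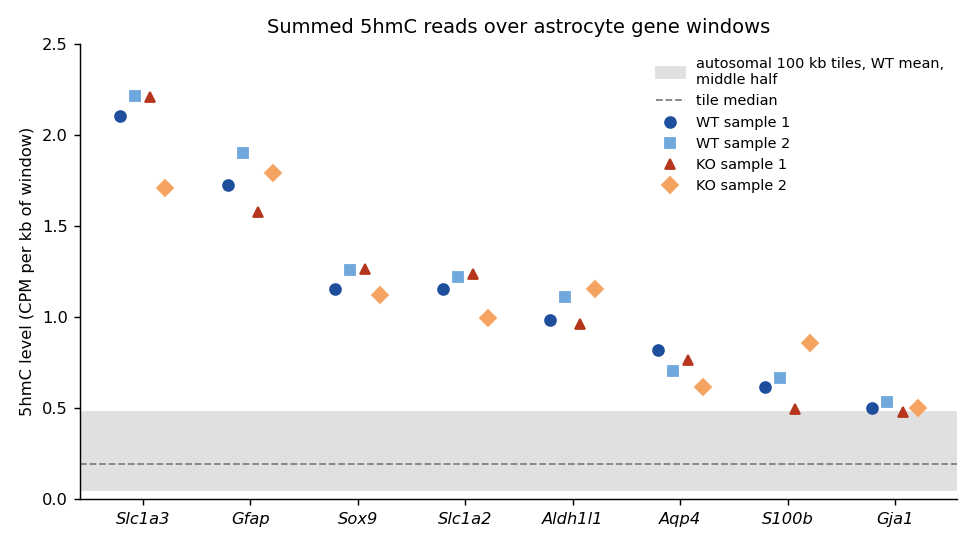
Summed 5hmC level over each gene window, in CPM per kb of window, with 1 point per library (2 WT, 2 KO) and genes ordered by the WT mean. The grey band spans the 25th to 75th percentile of autosomal 100 kb tiles in WT and the dashed line is their median of 0.192. All windows lie above that median in every library, with Slc1a3 and Gfap at the top and Gja1 at the bottom.

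The spread between the genes lay in how much of each window was covered by regions, and less in how strong the regions were. The level per kb of window differed 4.18-fold between Slc1a3 and Gja1, and the covered share differed 3.91-fold, from 7.88% of the Gja1 window to 30.8% of the Slc1a3 window. Per kb of region, WT levels ran only from 6.12 CPM for S100b to 7.62 CPM for Aqp4, a 1.24-fold range, beside a tile median of 5.98. The windows held from 12.9 regions per 100 kb for Aqp4 to 42.5 for Slc1a3, against a median of 7 per tile. Member regions had a median width of 563 bp, against 435 bp over all regions. The amount of flanking DNA in each window was not measured.

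The regions were not spread evenly along the windows. In the Aqp4 window the first 30.1 kb held none, and the longest stretch without a region between the others was 7.99 kb. The Gja1 window began with 24.1 kb free of regions, and the S100b window ended with 21.4 kb free of them. Here and below, the strongest region of a window is that of highest mean WT CPM, not divided by its width. At Slc1a2, Gfap, Aldh1l1 and S100b, another region was higher per kb of region. In the Slc1a3 window, by contrast to Aqp4, Gja1 and S100b, the median distance between neighbouring regions was 968 bp. Its strongest region lay near the far end, 113 kb from the window start. In the gene order of GRCm38.p6, Klf15 precedes Aldh1l1 and Slc41a3 follows it, Fam187a and Kif18b flank Gfap, and Prmt2 and Dip2a flank S100b. Parts of such neighbours may lie in the windows.

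**Figure D2:**
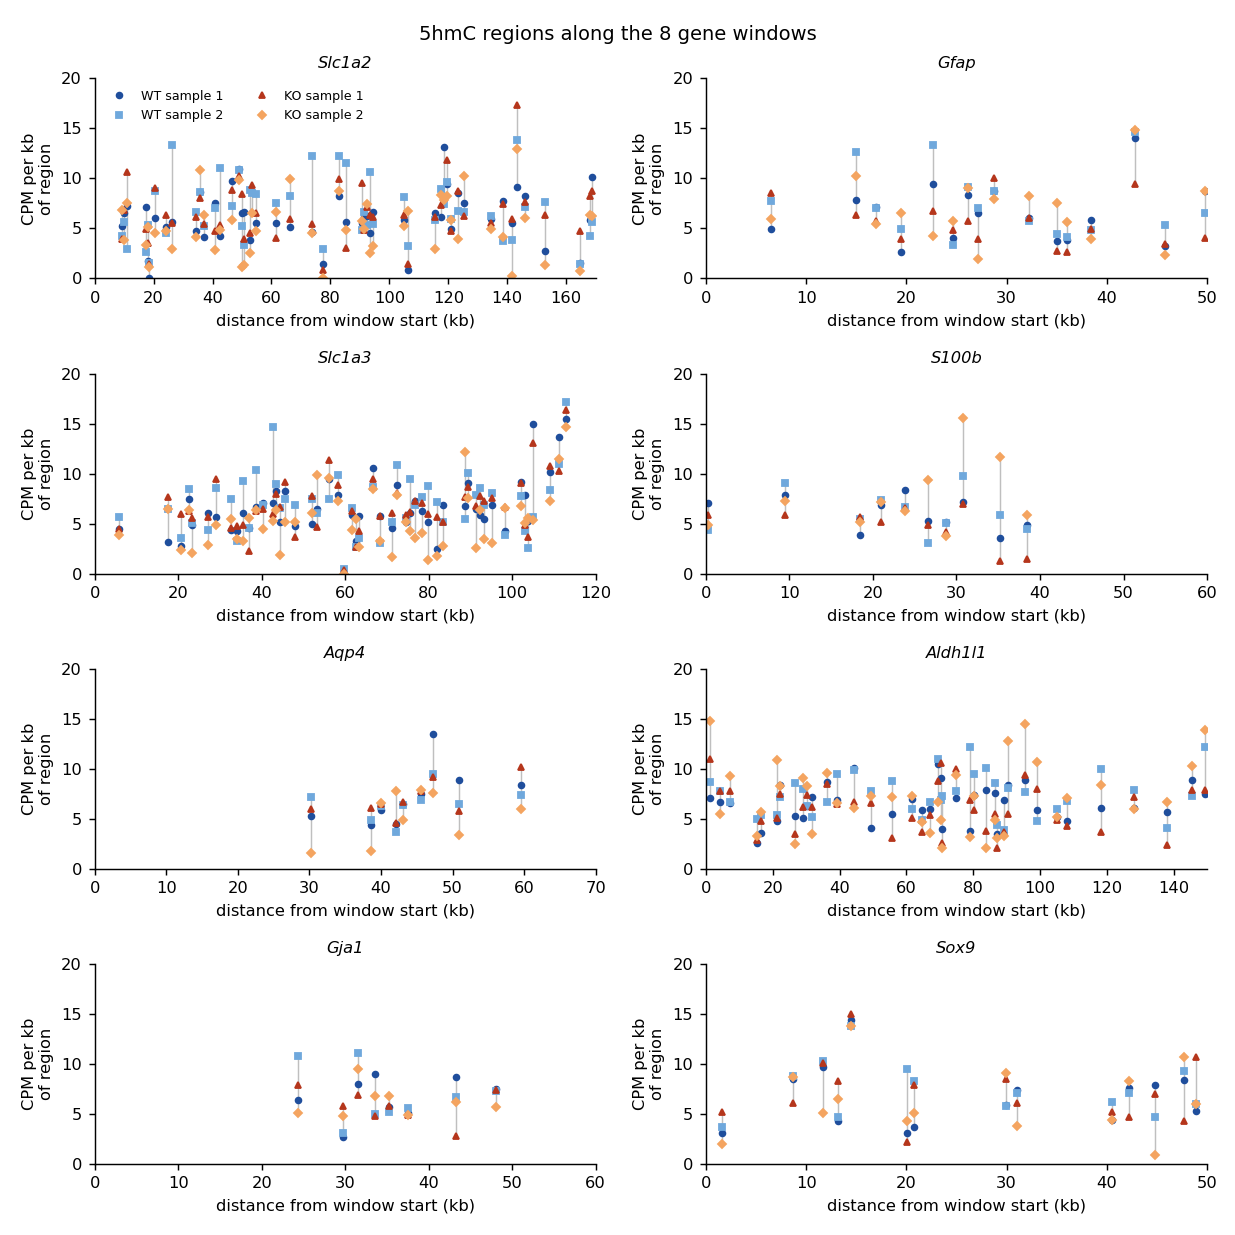
5hmC level of each of the 197 regions, in CPM per kb of region, against its distance from the start of the gene window in kb, with 1 panel per gene and 1 point per library. Grey lines join the lowest and highest library at a region. Slc1a2, Slc1a3 and Aldh1l1 have regions toward both ends of the window, with longest gaps of 11.4, 10.9 and 9.68 kb. Aqp4 and Gja1 have regions only past 30.1 kb and 24.1 kb.

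To determine whether loss of Tet1 altered 5hmC at these genes, the summed counts of the windows were tested between genotypes together with those of the tiles. By quasi-likelihood tests in edgeR, adjusted by Benjamini-Hochberg, 0 of 8 windows passed at adjusted p under 0.05, where 0% of all 19448 windows and tiles did. At unadjusted p under 0.05 there were also 0 of 8 windows, against 1.02% of windows and tiles. The log2 fold change of KO to WT was below 0 for 6 windows and above 0 for 2, with a median of -0.08 beside a median of -0.0025 over tiles. Unadjusted p ran from 0.470 to 0.938. Over the 8 genes, the 95% intervals of the difference reached from 0.668-fold to 1.63-fold. Changes within those bounds, relative to most regions, could not be told from the spread between libraries. The scaling takes out a change shared by most regions, so these intervals do not bound an absolute loss. From dot blots, the study reports that the global level of the mark was significantly lower in KO astrocytes. Whether the windows share in that decrease was not tested. Both KO libraries were below both WT libraries in 0 of 8 windows, against 13.7% of tiles, and above them in 0 of 8, against 11.1%.

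**Figure D3:**
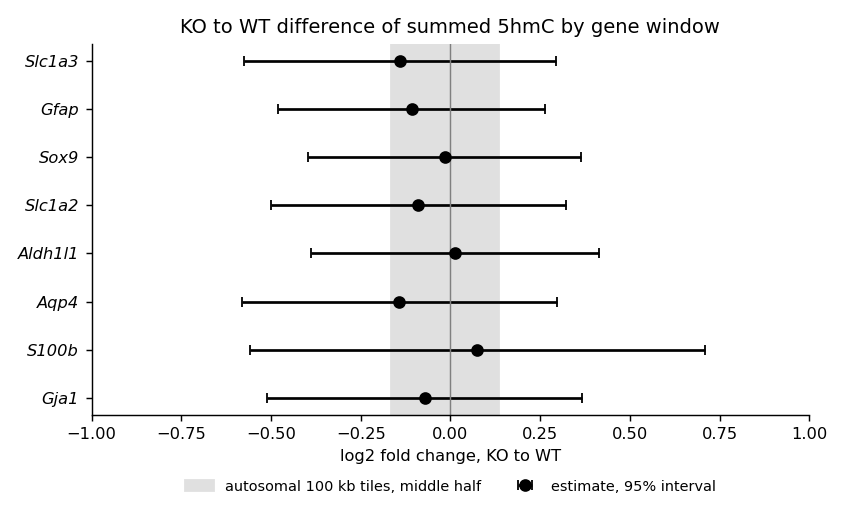
Log2 fold change of KO to WT for the summed counts of each gene window, with 95% confidence intervals from edgeR (n = 2 libraries per genotype). The grey band spans the 25th to 75th percentile of the log2 fold changes of tiles. All 8 intervals include 0, and S100b has the widest.

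The glutamate transporters came first. Slc1a2 and Slc1a3 encode the transporters by which astrocytes clear glutamate from synapses. Over the Slc1a2 window, on chromosome 2 from 102480000 to 102650000, the level was 210.5 and 169 CPM in KO samples 1 and 2, and 196 and 207 CPM in WT samples 1 and 2. KO sample 1 was the highest and KO sample 2 the lowest of the 4. The KO to WT log2 fold change was -0.09 ± 0.17 (SE, n = 2), with a fold interval from 0.707 to 1.25. The Slc1a3 window, on chromosome 15 from 8560000 to 8680000, summed to 265 and 205 CPM in KO samples 1 and 2, against 253 and 265 CPM in WT. Here KO sample 1 lay between the WT libraries, and KO sample 2 below both. Its log2 fold change was -0.14 ± 0.18 (SE, n = 2), with a fold interval from 0.672 to 1.23. Without KO sample 1, the log2 fold change of Slc1a3 became -0.34 with an adjusted p of 0.0198 by edgeR. In that fit the lone KO library is assumed to vary like the WT pair, and 20.3% of all windows and tiles passed. Without KO sample 2 it was 0.03, so the direction turned with that library.

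Within the Slc1a2 window, the strongest region in WT was from 102601853 to 102604491, counted 491 and 159 times in the KO libraries and 420 and 306 times in the WT libraries. This gave 23.0 and 10.3 CPM in KO and 22.4 and 17.8 CPM in WT, so the KO libraries lay on either side of the WT libraries. The strongest Slc1a3 region, from 8672245 to 8673429, reached 18.4 ± 1.42 CPM in KO, against 19.3 ± 1.47 in WT (mean ± SD of 2 libraries), a difference smaller than the spread. Of the 50 Slc1a3 regions tested, KO sample 2 was below both WT libraries in 33 and KO sample 1 in 13, beside 40.2% and 36.0% of all tested regions. For the 47 Slc1a2 regions tested these numbers were 25 and 11.

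The membrane channels followed. Aqp4 encodes the water channel of astrocyte endfeet, and Gja1 encodes a connexin that forms astrocyte gap junctions. The Aqp4 window, on chromosome 18 from 15520000 to 15590000, had 53.6 and 43.0 CPM in KO samples 1 and 2 and 57.3 and 49.3 CPM in WT samples 1 and 2. The library of lowest level was KO sample 2, and the groups overlapped. Its log2 fold change was -0.14 ± 0.19 (SE, n = 2). The strongest Aqp4 region, from 15566493 to 15568121, carried 34.9% of the WT level of the window, with 14.9 and 12.4 CPM in KO and 21.9 and 15.4 CPM in WT. Both KO libraries were below both WT libraries there, with an adjusted p of 1.00 by edgeR and an unadjusted p of 0.143. Without this region, the log2 fold change of the Aqp4 window was 0.00058.

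The Gja1 window, on chromosome 10 from 56070000 to 56130000, had the lowest level per kb of the 8. It had 28.8 and 30.1 CPM in KO and 30.0 and 31.9 CPM in WT. The log2 fold change was -0.07 ± 0.19 (SE, n = 2), with a fold interval from 0.701 to 1.29. Its strongest region, from 56101173 to 56101919, reached 6.12 ± 1.36 CPM in KO, against 7.12 ± 1.61 CPM in WT (mean ± SD of 2 libraries), and the genotypes overlapped.

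The genes of cytoplasmic proteins were Gfap, S100b and Aldh1l1. Gfap encodes the intermediate filament protein used most often to stain astrocytes. Its window, on chromosome 11 from 102730000 to 102780000, had 78.8 and 89.6 CPM in KO and 86.3 and 95.1 CPM in WT. KO sample 1 was the lowest, KO sample 2 lay between the WT libraries, and the log2 fold change was -0.11 ± 0.16 (SE, n = 2). It was -0.02 without KO sample 1 and -0.04 without WT sample 2, and -0.20 without KO sample 2 and -0.18 without WT sample 1. The strongest Gfap region, from 102757901 to 102759660, reached 15.9 ± 2.57 CPM in KO, against 15.4 ± 0.0556 CPM in WT (mean ± SD of 2 libraries), with the KO libraries on either side of the WT libraries. A nearby region from 102756830 to 102757393 was counted 48 and 17 times in KO, against 69 and 68 times in WT. Both KO libraries were lower there, by a log2 fold change of -1.17 ± 0.51 (SE), with an unadjusted p of 0.0358 and an adjusted p of 1.00 by edgeR.

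S100b encodes a calcium-binding protein that astrocytes also release, and its window varied most between the KO libraries. Over the window, on chromosome 10 from 75690000 to 75750000, KO sample 1 had 29.6 CPM and KO sample 2 had 51.4 CPM, with the WT libraries between them at 37.0 and 39.7 CPM. The resulting log2 fold change was 0.07 ± 0.27 (SE, n = 2), with a fold interval from 0.679 to 1.63. It was 0.42 without KO sample 1, with an adjusted p of 0.0316 by edgeR, and -0.37 without KO sample 2, so its sign depended on the library left out. In that fit without KO sample 1, too, the lone KO library is assumed to vary like the WT pair. In CPM, the KO libraries differed most at 2 regions. From 75724790 to 75725589 the counts were 21 and 143 for KO samples 1 and 2, around 54 and 80 for WT. From 75720364 to 75721218 they were 127 and 205 for KO, against 115 and 144 for WT. In CPM these were 5.95 and 13.3 in KO and 6.14 and 8.38 in WT, so KO sample 1 was below both WT libraries. The strongest region in WT, from 75710352 to 75711671, had 6.75 and 9.43 CPM in KO and 9.03 and 9.77 CPM in WT, which overlap.

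Aldh1l1 encodes an enzyme of folate metabolism and marks astrocytes more broadly than Gfap does. Its window, on chromosome 6 from 90420000 to 90570000, had 144 and 173 CPM in KO and 148 and 167 CPM in WT, so the WT libraries lay between the KO libraries. The log2 fold change of the sum was 0.01 ± 0.17 (SE, n = 2). Single regions of the window pointed either way, and no region of it passed after adjustment by edgeR. Of 39 regions, 13 had both KO libraries below both WT libraries and 6 had both above, beside 15.6% and 15.3% of all tested regions. The share with both above was near that of all regions. From 90503607 to 90504173, reads were counted 45 and 18 times in KO, against 83 and 98 times in WT. This was 1.64 ± 0.664 CPM in KO, against 5.07 ± 0.895 CPM in WT (mean ± SD of 2 libraries), a log2 fold change of -1.61 ± 0.47 (SE). Its unadjusted p of 0.00369 was the lowest of the 193 regions tested in the 8 windows, and became 1.00 after adjustment in edgeR. A second region lower in both KO libraries, from 90446263 to 90446825, reached 1.67 ± 0.427 CPM in KO, against 3.91 ± 1.30 CPM in WT (mean ± SD of 2 libraries). In the other direction, the region from 90420805 to 90421715, centred 1.26 kb from the window start, reached 11.7 ± 2.42 CPM in KO, against 7.13 ± 1.02 CPM in WT (mean ± SD of 2 libraries). The difference was 0.72 ± 0.32 (SE) on the log2 scale, with an unadjusted p of 0.0389. The strongest region, from 90514434 to 90516370, had 18.1 and 28.1 CPM in KO and 17.2 and 14.9 CPM in WT, with an unadjusted p of 0.0961. Neither passed after adjustment by edgeR.

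Sox9 encodes a transcription factor that starts and maintains the astrocyte programme. Its window, on chromosome 11 from 112620000 to 112670000, had 63.1 and 56.1 CPM in KO and 57.6 and 63.0 CPM in WT. KO sample 1 was just above and KO sample 2 just below both WT libraries, and the log2 fold change was -0.02 ± 0.16 (SE, n = 2). With DESeq2 it was 0.0064 and with total-count scaling 0.03, so no direction can be given for Sox9. The strongest region, from 112634158 to 112634864, reached 10.2 ± 0.596 CPM in KO, against 9.93 ± 0.310 CPM in WT (mean ± SD of 2 libraries), a difference smaller than the KO spread. The window held a stretch of 8.70 kb without a region, from 112640867 to 112649564.

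**Figure D4:**
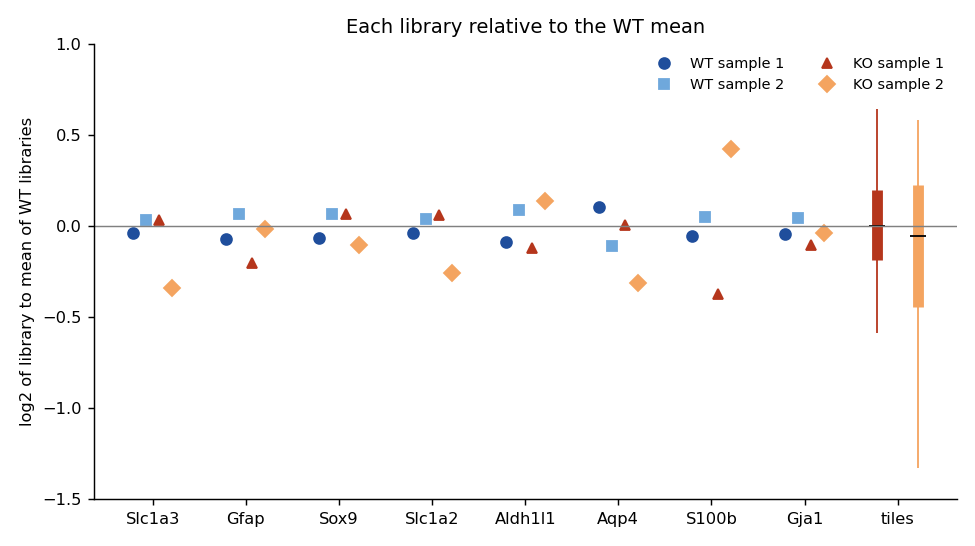
Log2 ratio of each library's summed level to the mean of the WT libraries, for each gene window. The bars at the right give the same ratio over tested tiles for KO sample 1 and KO sample 2 (thick, 25th to 75th percentile, thin, 5th to 95th, dash, median). KO sample 2 is low at Slc1a2, Slc1a3 and Aqp4 and high at S100b, while the WT libraries stay between -0.11 and 0.10.

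Across the genes, the KO libraries differed from each other more than the WT libraries did in 7 of 8 windows, Gja1 being the exception. The log2 ratio of KO sample 1 to KO sample 2 ran from -0.80 for S100b to 0.37 for Slc1a3. That of WT sample 1 to WT sample 2 ran from -0.18 for Aldh1l1 to 0.22 for Aqp4. Over tested tiles, the 5th and 95th percentiles were -0.81 and 1.66 for the KO pair and -0.43 and 0.72 for the WT pair. KO sample 2 was below both WT libraries at Slc1a2, Slc1a3, Aqp4 and Sox9 (45.7% of tiles) and above both at Aldh1l1 and S100b (38.7%). KO sample 1 was below both at Gfap, Aldh1l1, Gja1 and S100b (37.5%) and above both at Slc1a2 and Sox9 (37.0%). KO sample 2 also varied with the density of regions. In tiles with over 10 regions, its median log2 ratio to WT was 0.11, and in tiles of 1 to 5 regions it was -0.38. Among the 7089 tiles with over 10 regions, the KO sample 2 ratio ranked at the 9.55th percentile for Slc1a3, the 10.9th for Aqp4 and the 13.6th for Slc1a2, and at the 89.1th for S100b. Among all tested tiles these ranks were less extreme for the first 3 genes, at 30.5, 32.0 and 35.0, and the same for S100b, at 89.1. The comparison with dense tiles was chosen after the values were seen. The part of density in these values was not tested further.

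Next, the regions were taken one by one. Of the 197 member regions, 193 passed the low-count filter, and 0 of these passed at adjusted p under 0.05 by edgeR, where 0% of all 176957 tested regions did. At unadjusted p under 0.05 there were 5 of 193, or 2.59%, against 2.81% of all regions. Of these, 4 were lower in KO (1.27% of all regions), in the windows of Aldh1l1, Slc1a2 and Gfap. The other 1 was higher (1.54%), near the start of the Aldh1l1 window. Besides those given above, this was the Slc1a2 region from 102565080 to 102565614, counted 35 and 40 times in KO, against 57 and 106 times in WT. The next regions higher in KO were at Slc1a3 from 8657773 to 8658875, at 7.29 ± 0.102 CPM in KO, against 4.45 ± 0.285 in WT, and at Slc1a2 from 102490561 to 102491279, at 6.58 ± 1.58 CPM, against 3.69 ± 2.18 (mean ± SD of 2 libraries). Their unadjusted p-values by edgeR were 0.0601 and 0.0751. The 4 regions not tested had 0 to 28 counts per library, 3 at Slc1a2 and 1 at Slc1a3. Without KO sample 1, 12 of 194 member regions passed after adjustment, against 7.52% of all regions, and 41 had an unadjusted p under 0.05, against 23.4%. Without KO sample 2, 1 passed after adjustment, against 1.09%.

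The member regions lay to the low side in KO by small amounts. Their median log2 fold change was -0.18, against 0.02 over all tested regions, and it was below 0 in 126 of 193 regions (65.3%), against 48.1%. The median was below 0 in each of the 8 windows, from -0.25 at Gfap to -0.11 at Aldh1l1. In 38 regions both KO libraries were below both WT libraries (19.7%, against 15.6% of all), and in 24 both were above (12.4%, against 15.3%). The median was -0.26 without KO sample 1, -0.06 without KO sample 2, -0.17 without WT sample 1 and -0.08 without WT sample 2. In the same order, the medians over all tested regions were -0.03, -0.02, 0.05 and 0.04. The size thus depended on libraries of both genotypes. KO sample 2 was below both WT libraries in 51.3% of member regions, against 40.2% of all. For KO sample 1 these shares were 36.3% and 36.0%. KO sample 2 was above both WT libraries in 28.5% of member regions, against 39.7% of all. For KO sample 1 the shares above were 27.5% and 35.4%. In tiles with over 10 regions, the median over regions was 0.04. The median differed with width. It was -0.25 in 82 member regions under 500 bp, -0.16 in 83 of 500 to under 1000 bp and -0.05 in 28 of at least 1000 bp, against -0.01, 0.04 and 0.07 over all tested regions of these widths. Regions of a window are neighbours in the same libraries and not independent, and no test was made over the list.

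**Figure D5:**
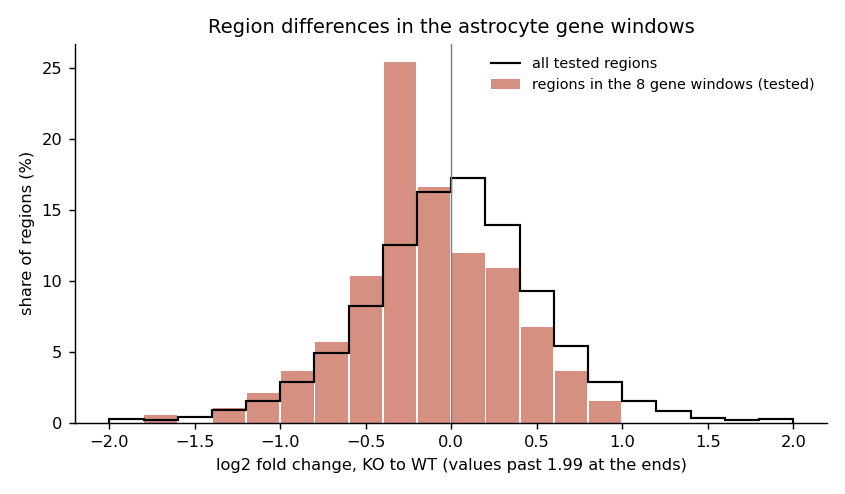
Share of regions, in percent, by log2 fold change of KO to WT in steps of 0.2, for the 193 tested regions of the gene windows (bars) and all 176957 tested regions (black line). The bars are shifted to the left of the line, with a median of -0.18 against 0.02.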

How the data were processed

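5hmC in genomic DNA was tagged through an azide-bearing glucose, biotinylated and purified, and the purified DNA was sequenced. Raw counts of reads per region, on 1 region list common to the 4 5hmC libraries, are what the authors deposited. The submitters' processing notes name Bowtie2 2.2.6 and the build mm9. How regions were defined and how duplicate or multiply placed reads were handled is not given in the sources used here. The 2 input libraries were not analysed here, so values are not corrected for background.

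Groups and sample numbers came from the sample titles. Regions passed filterByExpr of edgeR 4.0.16 in R 4.3.3 (minimum count 10, minimum total count 15) and were scaled with its TMM factors. KO was tested against WT by the quasi-likelihood test with Benjamini-Hochberg adjustment at 0.05, with 2 residual degrees of freedom. Counts summed per gene window were fitted together with autosomal tiles of 100 kb outside the windows, with the library sizes of the region fit. Standard errors were derived from the F statistic and intervals are at 95%. With 2 libraries a side, the smallest two-sided p of an exact permutation test is 0.333. The members, gene list and windows were chosen with earlier results of these data known, and the comparison by density and width after the values were seen. All 8 genes, the strongest WT region of each window and, in either direction, the 3 tested regions with the lowest unadjusted p and both KO libraries on one side of both WT libraries were named by rule. The other regions at unadjusted p under 0.05 and the weaker S100b regions were named after their values were seen. Alternatives were DESeq2 1.42.0, total-count scaling, no filter, a mean count of at least 20, the sample number as a block, tiles of 50 kb, sums without the strongest region, assignment by overlap and leaving out each library. Gene order and promoter sequences came from RefSeq on GRCm38.p6, and no coordinates were converted. Intervals and floors do not cover errors from duplicate reads. Figures were drawn with matplotlib 3.10.9.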

Additional observations from a re-analysis of the deposited data

How the results depend on the processing

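With 2 libraries per genotype and 2 residual degrees of freedom the tests are weak. The edgeR intervals and p-values also draw on the spread pooled over all features. For windows and tiles this added 5.11 prior degrees of freedom. The count of 0 windows called held under DESeq2, total-count scaling, no filter, 50 kb tiles, assignment by overlap, sums without the strongest region and the block. Leaving out a library gave 0 to 2 windows, the 2 being Slc1a3 and S100b without KO sample 1. Over all regions, 6 passed with DESeq2 and 2 without a filter, 7 to 13450 when a library was left out, and 0 at a mean count of at least 20 or with total-count scaling. Member regions at unadjusted p under 0.05 numbered 2 with DESeq2 (1.97% of all regions), 1 with total-count scaling (1.12%) and 0 to 41 when a library was left out, 41 without KO sample 1, against 5. The log2 fold change turned sign for Sox9 with DESeq2 (0.0064) and total-count scaling (0.032), for Aqp4 (0.00058) and Aldh1l1 (-0.058) without the strongest region. With a library left out it ranged from -0.26 to 0.061 for Slc1a2, -0.34 to 0.034 for Slc1a3, -0.31 to 0.0064 for Aqp4, -0.10 to 0.065 for Sox9, -0.12 to 0.14 for Aldh1l1, -0.37 to 0.42 for S100b, -0.20 to -0.02 for Gfap and -0.12 to -0.03 for Gja1. All 8 windows stayed above the tile median under each level setting, the leaving out of a WT library having been added after the data were seen. Same-numbered libraries deviated together (correlation 0.164), but the labels do not say that a number marks a shared batch. With the replicate block, 79 regions of the whole table passed, and it changed no call of a window. Why these values moved, that is, the cause, was not tested.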
